A study of Mus musculus with 18 samples.

Results

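S100 proteins are small calcium sensors, and the 8 genes of this family described here (S100b, S100a1, S100a16, S100a6, S100a13, S100a10, S100a11 and S100a4) are those known from glial cells. They were chosen by gene symbol from the 48440 genes of a table of brain RNA and are 8 of the 17 S100 genes in it. The rule itself used no measured value, but earlier results of these data were known when the members were chosen. The libraries came from total RNA of mouse brain, enriched for poly(A) RNA and copied with random primers. 6 libraries were made from 5xFAD mice fed a fucose diet for 1 month, 6 from 5xFAD mice fed a control diet for 1 month, and 6 from WT mice fed the control diet for 1 month. 5xFAD is a transgenic mouse model of Alzheimer's disease, driven by the neuronal Thy1 promoter, that deposits amyloid in the brain. L-fucose is a monosaccharide that ends many glycan chains on cell-surface proteins. The labels give no brain region, sex or age and do not say that each library is a separate animal, so the p-values measure only the spread between these libraries.

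An S100 protein carries a pair of EF hands, the helix-loop-helix fold that binds calcium, and usually works as a dimer that grips a target protein once calcium has bound. Several members have known partners: S100a10 holds annexin A2, S100a11 binds annexin A1, S100a6 (calcyclin) binds the calcyclin-binding protein Cacybp, and S100a4 binds non-muscle myosin. Astrocytes release S100b, which acts on the receptor for advanced glycation end products (RAGE, gene Ager) and is widely used as a marker of glial injury.

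7 of the 8 genes lie on chromosome 3 in 2 groups of neighbours, and S100b lies apart on chromosome 10 (positions in mm10 as in the deposited table, which match GENCODE M21 on GRCm38 for all 8). S100a1 (chr3:90511034-90514392, minus strand) and S100a13 (chr3:90514435-90524581, plus strand) point away from each other with 42 bp between their first annotated bases. S100a16 (chr3:90537254-90543151), S100a4 (chr3:90603771-90606045) and S100a6 (chr3:90612882-90624181) follow on the plus strand. S100a11 (chr3:93520488-93526287) and S100a10 (chr3:93555080-93564643) lie 2896306 bp beyond S100a6, and S100b is at chr10:76253853-76261159, all on the plus strand.

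The DNA in front of S100a6 is shown because that gene differed most between genotypes, that of S100a11 because it holds motifs that the S100a6 stretch lacks, and the stretch shared by S100a1 and S100a13 because these neighbours also varied together. Promoters were taken from RefSeq on GRCm38.p6, which gave an entry for 7 of the 8 genes (S100a10 was without one), and are printed on the plus strand up to the base before the gene's first annotated base, at chr3:90612644-90612881, chr3:93520246-93520487 and chr3:90514393-90514434. Capitals mark matches to the AP-1 motif (TGANTCA) and to the GC box (GGGCGG), on either strand.
S100a6: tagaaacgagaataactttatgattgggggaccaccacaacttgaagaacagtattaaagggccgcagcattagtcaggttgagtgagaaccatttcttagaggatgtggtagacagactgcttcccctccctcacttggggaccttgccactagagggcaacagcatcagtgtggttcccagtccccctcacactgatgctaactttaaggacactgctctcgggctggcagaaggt
S100a11: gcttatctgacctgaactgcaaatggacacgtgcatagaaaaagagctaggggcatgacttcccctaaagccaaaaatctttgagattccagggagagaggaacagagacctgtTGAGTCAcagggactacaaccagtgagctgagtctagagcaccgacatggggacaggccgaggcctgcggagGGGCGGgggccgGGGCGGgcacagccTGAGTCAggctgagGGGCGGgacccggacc
S100a1 and S100a13: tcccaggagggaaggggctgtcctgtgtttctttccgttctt
5 motifs were searched on both strands in windows of 250 bases before to 50 bases after each RefSeq start, with overlaps between motifs allowed. Among 32851 such windows of all genes, 7.81% held AP-1, 35.7% the GC box, 8.3% the STAT motif TTCNNNGAA, 1.79% the cyclic AMP response element TGACGTCA and 13.6% the TATA box TATAAA. S100a11 had 2 AP-1 matches and 3 GC boxes, 1 of the windows of S100a16 had 1 of each, and S100a4 had 1 TATA box. The windows of S100a6, S100b, S100a1 and S100a13 held none of these 5 letter strings.

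Per length of transcript, S100b was the most abundant of the 8 in all 3 groups and S100a4 the least. S100b, secreted by astrocytes, averaged 5123 ± 478 normalized counts per kb of exon in 5xFAD brains on fucose, 5046 ± 453 in 5xFAD brains on control diet and 4455 ± 388 in WT brains (SD, n = 6 each). S100a1, known for regulating calcium release channels and pumps, came next with 3599 ± 414 per kb in 5xFAD on fucose, 4254 ± 456 in 5xFAD on control diet and 3182 ± 547 in WT. S100a16 was the next in order, at 2496 ± 442 per kb in 5xFAD on fucose, 2903 ± 108 in 5xFAD on control diet and 2372 ± 405 in WT. The other members were lower. S100a13 stood at 961 ± 160 per kb in 5xFAD on fucose, 1135 ± 118 in 5xFAD on control diet and 867 ± 157 in WT, and S100a11, the lowest after S100a4, at 374 ± 83.8 in 5xFAD on fucose, 478 ± 103 in 5xFAD on control diet and 293 ± 75.9 in WT. S100a6 was in position 6 of 8 in WT brains, below S100a10, and in position 5 in both 5xFAD groups, above it. The libraries of these neighbours S100a6 and S100a10 overlapped in every group, as did those of S100b and S100a1 in the 2 control-diet groups and of S100a10 and S100a11 in both 5xFAD groups. In WT the neighbours S100a1 and S100a16, S100a13 and S100a10, and S100a6 and S100a11 overlapped as well.

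The order depends on which length is used for 3 members. The levels above divide by merged exons of all annotated transcripts, and with the length of 1 transcript per gene (an alternative chosen after seeing the data) S100a16, S100a6 and S100a10 came out higher. S100a6 then stood at 1206 per kb in 5xFAD on fucose, 1580 in 5xFAD on control diet and 699 in WT, which is position 4 in both 5xFAD groups and still position 6 in WT. S100a16 passed S100a1 in WT brains (3416 against 3262 per kb), within the spread of both.

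**Figure D1:**
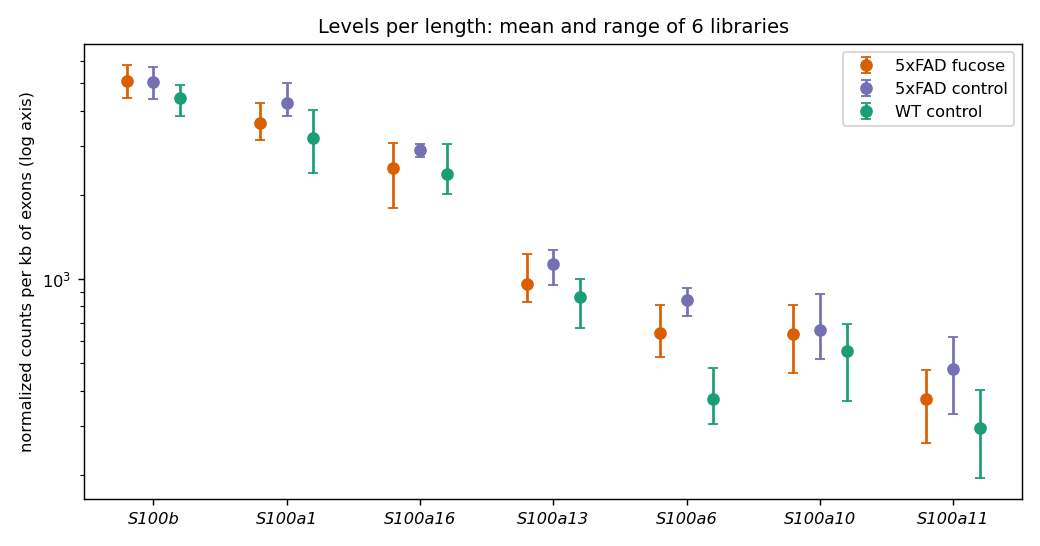
Normalized counts per kb of merged exon on a log axis for 7 S100 transcripts in 5xFAD on fucose, 5xFAD on control diet and WT on control diet. Points are means and bars the lowest to highest of 6 libraries. S100b, S100a1 and S100a16 sit above the other 4 in each group, and S100a6 is the transcript whose WT range lies wholly below both 5xFAD ranges.

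The first comparison asked which of these genes differ between 5xFAD and WT brains on the same control diet. 2 of the 7 members that passed the filter on low counts were called higher in 5xFAD (limma on log2 values, adjusted p below 0.05 over 18808 genes), where 1.97% of all tested genes were called higher, and none was called lower, where 0.165% were (2.14% in either direction). The called genes were S100a6 and S100a1. All 7 fitted differences were positive, with a median log2 fold change of 0.40 against -0.0078 over all tested genes, and 6 of the 7 had an unadjusted p under 0.05 where 11.4% of all genes did. The median was also positive, at 0.18, over 80 ribosomal protein genes, and was 0.02 over 89 oxidative phosphorylation genes. It was 0.27 over 10 choroid plexus genes and 0.15 over 8 tested ependymal genes. No gene of these lists was called. The mean of the ribosomal and oxidative phosphorylation genes was used as a covariate in one of 30 alternative settings of the fit. S100a6 was called in all 30 settings (log2 fold change 1.12 to 1.27) and S100a1 in 24 of them (0.33 to 0.50). Beyond that, the part of these lists in the S100 differences was not tested.

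S100a6, whose partner Cacybp acts in protein ubiquitination, rose 2.29-fold. Its normalized counts were 1010, 1146 and 1267 in the lowest, median and highest 5xFAD library on control diet, against 414, 487 and 658 in WT. Every 5xFAD library lay above every WT library, a separation that 1.8% of all tested genes showed in this direction. The mean was 1155 ± 99.2 in 5xFAD and 511 ± 98.8 in WT (SD, n = 6 each), a log2 fold change of 1.19 ± 0.12 (SE; limma adjusted p = 4.3e-07) with a 95% interval of 1.92 to 2.72 on the fold scale. S100a6 was the 43rd gene by p of the 18808.

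S100a1 rose 1.35-fold. The lowest, median and highest 5xFAD libraries held 2667, 2828 and 3482 normalized counts, against 1658, 2258 and 2786 in WT. 3 of the 6 5xFAD libraries lay above all WT libraries and all 6 lay above the WT median, so the groups overlapped. The log2 fold change was 0.43 ± 0.10 (SE; limma adjusted p = 0.0218). This call was lost, at adjusted p of 0.0607 to 0.0714, when WT library 1 or 6 or 5xFAD library 5 or 6 was left out. It was also lost without the 3 libraries that hold almost no Xist RNA, 1 in each group, where the log2 fold change was 0.40 (adjusted p = 0.0886).

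S100b did not pass the threshold. Its normalized counts were 6526, 7473 and 8472 in the lowest, median and highest 5xFAD library on control diet, against 5692, 6685 and 7344 in WT. 4 of the 6 5xFAD libraries lay above all of WT and the lowest lay within the WT range. The log2 fold change was 0.18 ± 0.08 (SE; limma adjusted p = 0.365), and its 95% interval of 1.01 to 1.27 on the fold scale excludes a change as large as that of S100a6. Relative to S100b in the same library, the log2 ratio of S100a6 was -2.70 ± 0.23 in 5xFAD and -3.71 ± 0.33 in WT (SD, n = 6 each). The difference of 1.01 had p = 0.00216 in a two-sided exact permutation test, the smallest this design allows. The adjusted permutation p was 0.013 over 6 ratio tests, and all 6 5xFAD libraries lay above all of WT. This ratio uses the same S100a6 values as the limma fit, and the pair was set with earlier results of these data known. Its p is therefore not independent support for the S100a6 difference.

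Neither of the annexin-binding members S100a11 and S100a10 was called. S100a11 had 169, 246 and 318 normalized counts in the lowest, median and highest 5xFAD library on control diet, against 99.4, 149 and 206 in WT. 4 of 6 5xFAD libraries lay above all of WT, and the log2 fold change was 0.71 ± 0.20 (SE; limma adjusted p = 0.0624). This value sat close to the threshold: DESeq2 gave an adjusted p of 0.0202, and leaving out WT library 4 or 5xFAD library 4 gave 0.027 and 0.0305. S100a10 had 629, 757 and 1074 in 5xFAD, against 444, 683 and 839 in WT, with broadly overlapping groups. Its log2 fold change was 0.25 ± 0.15 (SE; limma adjusted p = 0.567). The ratio of S100a10 to S100a11 did not differ detectably, at a log2 ratio of 1.72 ± 0.41 in 5xFAD and 2.18 ± 0.55 in WT (exact permutation p = 0.134, adjusted 0.164).

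S100a13 and S100a16 were also not called. S100a13, which helps release fibroblast growth factor 1 from cells, had 683, 818 and 909 normalized counts in the lowest, median and highest 5xFAD library on control diet, against 477, 664 and 717 in WT. 5 of its 6 5xFAD libraries lay above all of WT (log2 fold change 0.40 ± 0.13 SE, limma adjusted p = 0.118). S100a16 had 4427, 4750 and 4901 in 5xFAD, against 3258, 3517 and 4908 in WT. The 5xFAD libraries spread less (174 SD) than the WT libraries (655 SD), and the highest WT library lay at the top of the 5xFAD range. The log2 fold change of S100a16 was 0.31 ± 0.11 (SE; limma adjusted p = 0.205).

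S100a4, known from metastasis and from immune and meningeal cells, was close to undetected. It reached at most 5.11 normalized counts in any library, with 1 of 6 5xFAD libraries on fucose, 2 of 6 5xFAD libraries on control diet and 5 of 6 WT libraries at 0. With a count of 0 as many as 3 reads remain possible, equal to 2.66 to 3.72 normalized counts depending on the library, so no fold change is given and S100a4 was not tested. The annotated exons of S100a4 share 302 bp, or 51.7% of their length, with Gm42674 on the same strand, and Gm42674 was listed at 0 in all 18 libraries. Whether reads in the shared bases went uncounted was not tested, so the S100a4 level is uncertain.

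**Figure D2:**
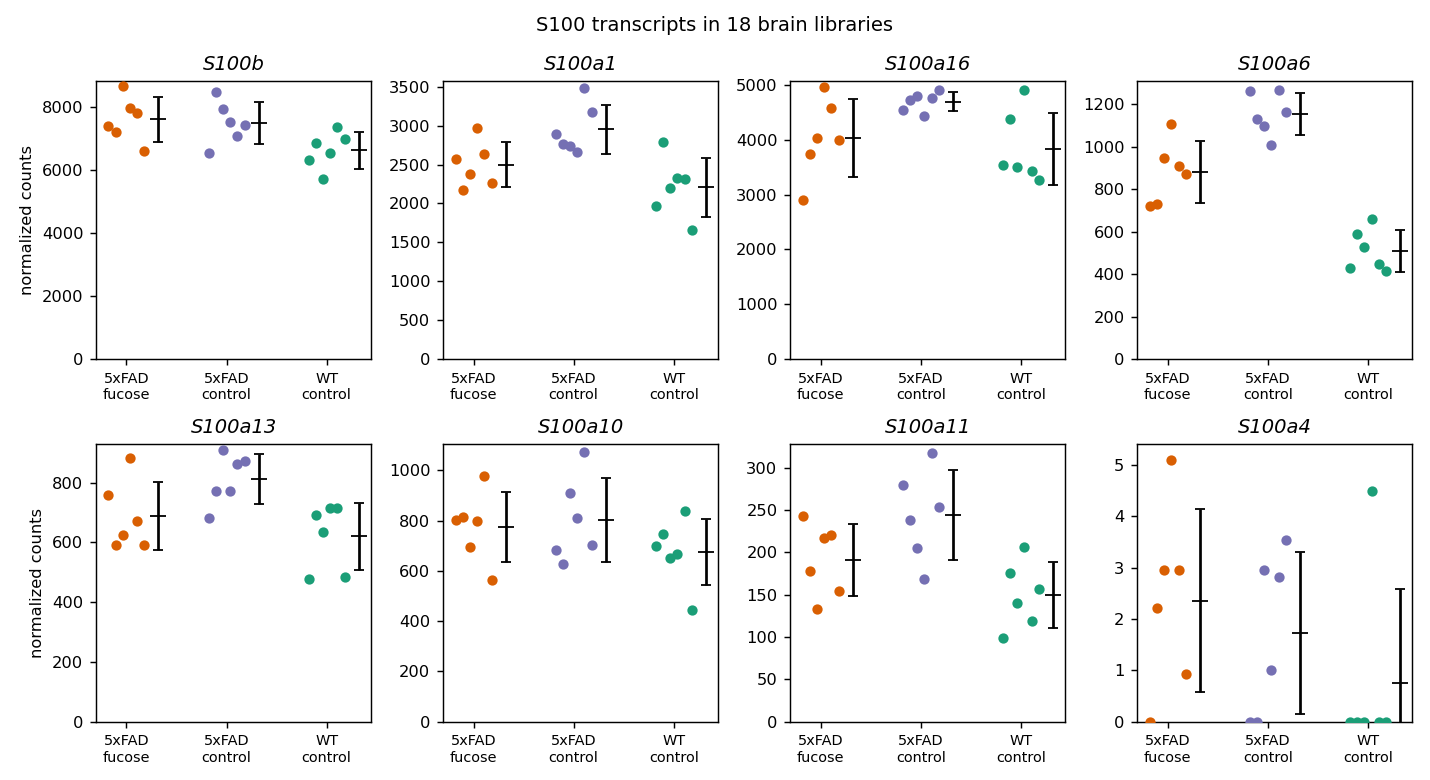
Normalized counts of the 8 S100 transcripts in each of 18 libraries (points; 6 libraries per group, left to right 5xFAD on fucose, 5xFAD on control diet, WT on control diet), with the mean and SD beside them and linear axes from 0. All S100a6 points of both 5xFAD groups lie above the highest WT value of 658, the S100b groups overlap, and no S100a4 point exceeds 5.11.

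Glial marker genes moved in the same comparison, and these values stand beside the S100 results. Of 14 reactive astrocyte genes 8 were called higher in 5xFAD on control diet (median log2 fold change 1.35), where 1.97% of all tested genes were. The 14 genes summed to 92592 to 127307 normalized counts in 5xFAD and 15202 to 25829 in WT. Gfap made up most of these sums, with a mean of 85049 in 5xFAD and 14692 in WT, where the sums averaged 103048 and 20934. Of 14 microglia markers 10 were called higher (median 0.94), with sums of 48472 to 58129 in 5xFAD and 19711 to 25440 in WT. Of 15 genes of disease-associated microglia 14 were called higher (median 1.76). None of 12 general astrocyte markers (median 0.04) and none of 12 oligodendrocyte markers (median 0.07) was called. Astrocyte sums were 153029 to 177582 in 5xFAD and 151704 to 172328 in WT, and every gene on these 5 lists passed the filter on low counts. In bulk RNA, more cells of a type and more RNA per cell cannot be told apart, and the part of these cell types in the S100a6 difference was not tested.

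The second comparison asked what the fucose diet changed in 5xFAD brains. None of the 7 tested members was called, where 0% of all 18808 genes were called in either direction and the smallest adjusted p in limma was 0.822. edgeR and DESeq2 on the recovered reads also called 0 genes. At an unadjusted p under 0.05 there were 3 members (S100a6, S100a1 and S100a16), where 5.34% of all genes passed. 6 of the 7 fitted differences were negative, with a median log2 fold change of -0.24 against -0.0043 over all genes. The 5xFAD libraries on control diet also entered the first comparison, with the opposite sign. The positive differences there and the negative ones here are therefore not independent. No member had all fucose libraries above or all below the control-diet libraries, where 0.0638% and 0.122% of all genes did.

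S100a6 had the smallest p of the members. Its normalized counts were 723, 890 and 1110 in the lowest, median and highest 5xFAD library on fucose, against 1010, 1146 and 1267 in 5xFAD on control diet. 5 of 6 libraries on fucose lay below every library on control diet. The log2 fold change was -0.40 ± 0.12 (SE; unadjusted p = 0.00313, limma adjusted p = 0.822), a fold of 0.758 with a 95% interval of 0.636 to 0.902, and 27th of all genes by p. It was negative under all 30 alternative settings, between -0.47 and -0.26, and called under none of them.

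The log2 ratio of S100a6 to S100b was -3.12 ± 0.20 in 5xFAD on fucose and -2.70 ± 0.23 in 5xFAD on control diet (SD, n = 6 each). The difference of -0.42 had an exact permutation p of 0.0108 and an adjusted p of 0.0216 over the 6 ratio tests, with 5 of 6 fucose libraries below all control-diet libraries. Without the 3 libraries that hold almost no Xist RNA the difference was -0.38 and no longer passed (adjusted p = 0.0794). This ratio is a single value tested outside the fit across all genes, in which no gene passed. It uses the same S100a6 values as that fit, and the pair of genes was set with earlier results of these data known. Its adjusted p is therefore not independent support for a difference between the diets.

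S100b itself was at 6594, 7597 and 8663 normalized counts in the lowest, median and highest 5xFAD library on fucose, against 6526, 7473 and 8472 on control diet. The groups overlapped almost completely (log2 fold change 0.02, 95% interval -0.14 to 0.18). S100a1 had 2178, 2470 and 2964 on fucose, against 2667, 2828 and 3482 on control diet. 5 of 6 fucose libraries lay below all libraries on control diet for S100a1 (log2 fold change -0.24 ± 0.10 SE, limma adjusted p = 0.822). S100a16 ranged from 2900 to 4969 on fucose and from 4427 to 4901 on control diet, with a log2 fold change of -0.24. The spread of S100a16 was 715 SD on fucose and 174 SD on control diet. S100a13 (-0.25), S100a11 (-0.35) and S100a10 (-0.04) also had negative log2 fold changes, each with an interval that includes 0.

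Genes of the ribosome and of oxidative phosphorylation had negative medians on fucose as well, with none called: the median log2 fold change was -0.20 over 80 ribosomal protein genes and -0.18 over 89 oxidative phosphorylation genes. With the mean of these genes as a covariate, the log2 fold change of S100a6 was -0.26, that of S100a11 -0.14, of S100a16 -0.13, of S100a13 -0.07, of S100a1 -0.06, of S100b 0.05 and of S100a10 0.18, and none was called. Markers of the cells that line the ventricles had larger negative medians, again with none called: -0.31 over 10 choroid plexus genes, all of them negative, and -0.29 over 8 tested ependymal genes of 9. Choroid plexus sums were 23502 to 96867 normalized counts on fucose and 27832 to 138149 on control diet, and ependymal sums 1231 to 2311 on fucose and 1488 to 3198 on control diet. In 5xFAD on control diet Ttr made up most of the choroid plexus sum, with a mean of 74573 where the sum averaged 79013. The part of these cells in the S100 differences was not tested.

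**Figure D3:**
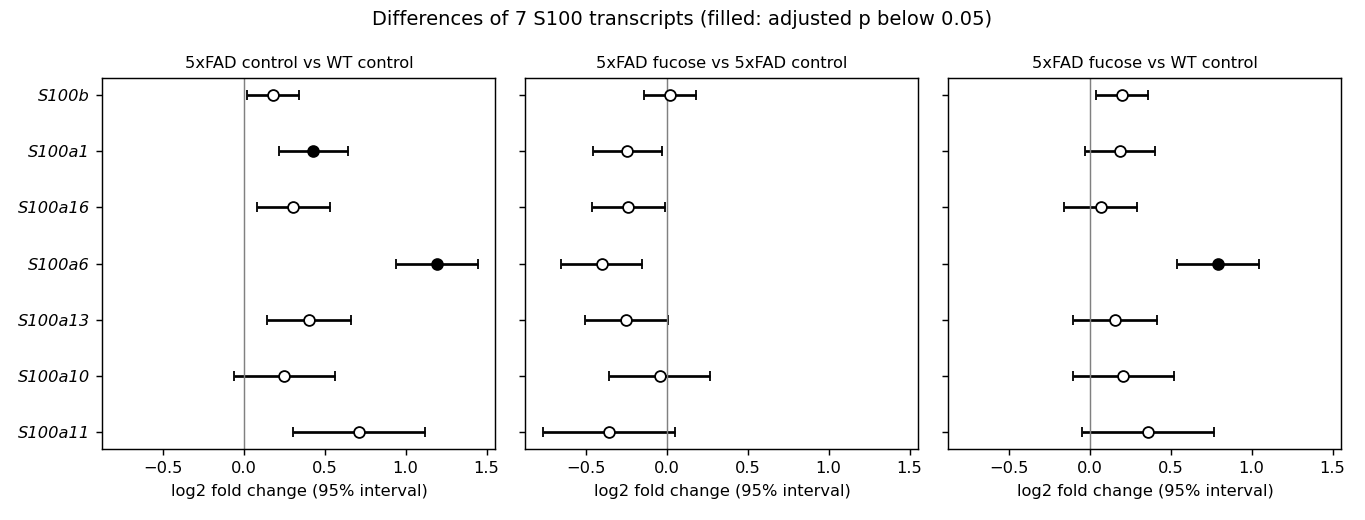
Log2 fold changes (horizontal axis) with 95% intervals from limma for 7 S100 transcripts in 3 comparisons, filled where the adjusted p is below 0.05. S100a6 stands furthest from 0 in each panel, at 1.19, -0.40 and 0.79, and is filled in both comparisons with WT. S100a1 is filled only in the first panel.

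The third comparison set the fucose-fed 5xFAD brains against WT brains, where genotype and diet differ together. It shares its fucose libraries with the second comparison and its WT libraries with the first. The first and second comparisons share the 5xFAD libraries on control diet, so the 3 sets of values are not independent. 1 of 7 members was called higher, S100a6, where 1.91% of all genes were, and none lower, where 0.0904% were (2% in either direction). S100a6 and S100b had an unadjusted p under 0.05, as 10.9% of all genes did. All 7 fitted differences were positive, with a median of 0.20 against -0.01 over all genes. S100a6 had 723, 890 and 1110 normalized counts in the lowest, median and highest fucose library, against 414, 487 and 658 in WT. All 6 libraries of 5xFAD on fucose lay above all 6 of WT, as 1.41% of tested genes did, while no member had all of them below, where 0.144% did (log2 fold change 0.79 ± 0.12 SE, 1.73-fold, limma adjusted p = 1.9e-04). S100b (0.20, adjusted p = 0.294), S100a1 (0.19, adjusted p = 0.541) and S100a11 (0.36, adjusted p = 0.538) were not called by limma, and S100a10, S100a13 and S100a16 had log2 fold changes of 0.21, 0.15 and 0.07.

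Proteins that S100 dimers bind were compared next, to see whether partner transcripts differed where S100 transcripts did. Of 16 partner genes 1 was called higher in 5xFAD than in WT on control diet, and the median log2 fold change was -0.04. That gene was Anxa2, the partner of S100a10, at 795 ± 91.1 normalized counts in 5xFAD and 550 ± 115 in WT (1.46-fold, limma adjusted p = 0.0357). Anxa1, the partner of S100a11, and Cacybp, the partner of S100a6, are named here for that role, outside the naming rule, and had log2 fold changes of -0.0083 and 0.01. Among 10 tested annexins of 12, 3 were called higher (median 0.31): Anxa2, Anxa3 at 829 ± 112 in 5xFAD and 425 ± 60.6 in WT (adjusted p = 6.4e-05), and Anxa5 at 3914 ± 373 in 5xFAD and 3187 ± 272 in WT (adjusted p = 0.0275). Anxa3 was the only one of these called in 5xFAD on fucose against WT (log2 fold change 0.98, limma adjusted p = 5.3e-05), and no annexin was called between the diets.

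None of 7 receptor genes for S100 proteins was called in any comparison (median log2 fold change 0.23 in 5xFAD against WT on control diet). The smallest p values among them belonged to Tlr4, an innate immune receptor, at 37.5 ± 11.5 normalized counts in 5xFAD and 19.9 ± 10.1 in WT (limma adjusted p = 0.229), and Fgfr1 (adjusted p = 0.23). Of 15 other EF-hand genes none was called and the median was -0.02 for that comparison. Of the 9 remaining S100 genes in the table, 4 passed the filter and none was called. The one with the smallest p was S100a8, a subunit of the neutrophil protein calprotectin, at 17.0 ± 20.2 in 5xFAD on control diet and 1.19 ± 1.51 in WT (log2 fold change 2.33, limma adjusted p = 0.223). In 5xFAD on fucose S100a8 averaged 17.0 ± 14.6, a log2 fold change of 2.91 against WT (limma adjusted p = 0.0886).

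Between libraries of the same group, some pairs of chromosome 3 members varied together and others did not. Deviations from the group means over 18 libraries had a Pearson r of 0.84 for S100a6 with S100a16, 0.77 for the divergent neighbours S100a1 and S100a13, and 0.69 for S100a1 with S100a6, while the neighbours S100a10 and S100a11 had r = 0.14, S100a6 with S100a10 0.14 and S100a10 with S100a16 0.18. S100b had r between -0.15 and 0.27 with the other 6. Library 4 was the highest of the 5xFAD libraries on fucose for S100a6, S100a1, S100a13 and S100a16, library 5 the highest of those on control diet for S100a6, S100a1, S100a10 and S100a11, and libraries 4 and 2 the highest of WT for S100a6, S100a11 and S100a16. For S100b the highest were library 3 on fucose, library 2 on control diet and library 5 of WT. Library 5 of 5xFAD on control diet and library 4 of WT are among the 3 libraries that hold almost no Xist RNA (6.60 and 11.7 normalized counts). The third, library 5 of 5xFAD on fucose (0 normalized counts of Xist), was the highest on fucose for S100a10 (979) and for no other member. These are descriptions over libraries that each share one RNA preparation and one depth. The genes most like S100a6 in this measure were Laptm5, a lysosomal membrane gene of immune cells (r = 0.86), Aph1a, a subunit of gamma-secretase (0.86), and Psme2, a proteasome activator subunit (0.86). Those most like S100a1 were Crlf2, Timm13 and Polr2e, each with r = 0.96, and those most like S100a16 were Bcam (0.91), Efs (0.89) and Tst (0.87). S100a13 was closest to Lgals1 (0.85), S100a10 to Epb41l4aos (0.90), S100a11 to Pex16 (0.83) and S100b to Eldr (0.77), a gene with few reads.

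Of 91 relations between a member and the mean level of a gene list, 10 had an adjusted permutation p below 0.05 by Pearson r. S100a1 followed oxidative phosphorylation genes (Pearson r = 0.88, permutation p = 4.0e-05, adjusted 0.00364; Spearman rho = 0.87, permutation p = 6.0e-05), with r = 0.88 after the 2 farthest libraries were left out and between 0.83 and 0.94 within each group. S100a10 and S100a13 also followed them, at r = 0.67 (adjusted p = 0.0411) and 0.74 (adjusted p = 0.026). The same 3 members followed cytosolic ribosomal protein genes, S100a1 at r = 0.81 (adjusted p = 0.0141), S100a10 at 0.74 (adjusted p = 0.026) and S100a13 at 0.69 (adjusted p = 0.0411). By Spearman rho, S100a10 did not pass with oxidative phosphorylation genes (adjusted permutation p = 0.124) or ribosomal protein genes (0.105). Nor did S100a13 with ribosomal protein genes by Spearman rho (adjusted permutation p = 0.0688). General astrocyte markers ran opposite to S100a13 (r = -0.75), S100a1 (-0.72) and S100a16 (-0.70), each with an adjusted permutation p of 0.026. Without the 2 farthest libraries these were -0.62, -0.56 and -0.61. Within 5xFAD on control diet S100a1 had r = -0.32, against -0.96 for S100a13 and -0.84 for S100a16. S100a6 went with genes of disease-associated microglia (r = 0.65, permutation p = 0.00229, adjusted 0.026; rho = 0.66, permutation p = 0.00317). Without the 2 farthest libraries that r was 0.47, and it was 0.86 in 5xFAD on fucose, 0.79 in 5xFAD on control diet and 0.43 in WT. The relation was not particular to S100a6, since S100a16 also had r = 0.65 with this list, short of the threshold (adjusted permutation p = 0.0978). For S100a16 that r was 0.19 without the 2 farthest libraries. S100b had no relation that passed, the highest being 0.47 with oligodendrocyte markers (adjusted p = 0.278).

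**Figure D4:**
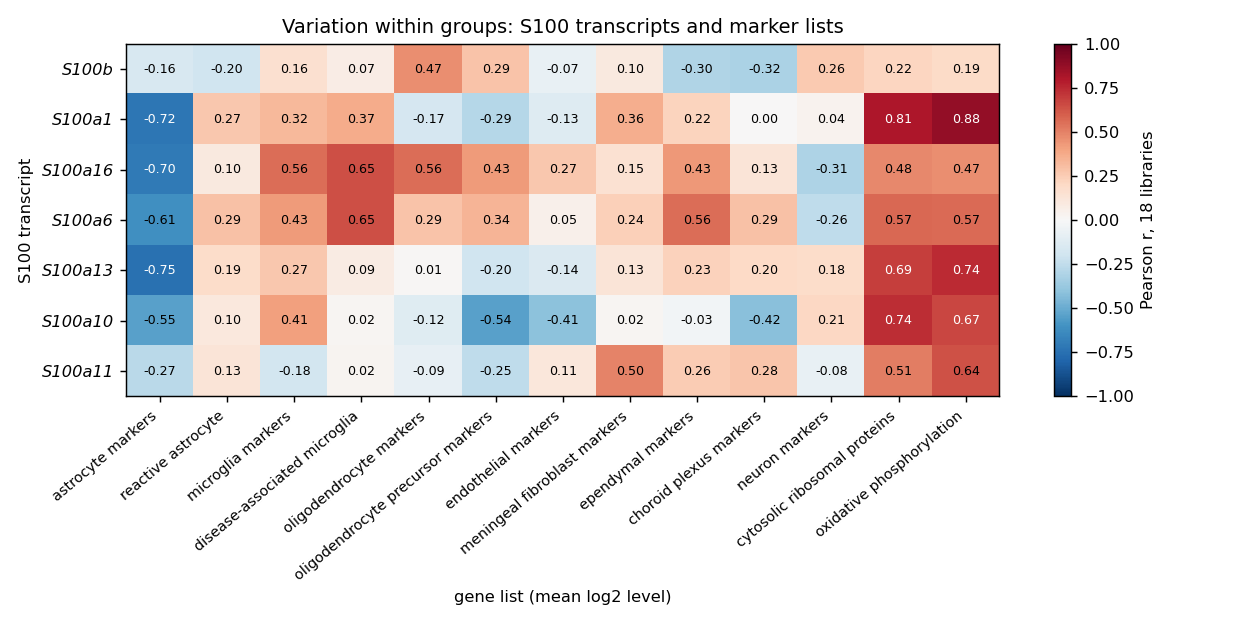
Pearson r between the deviation of each of 7 S100 transcripts (rows) and the deviation of the mean log2 level of each gene list (columns) from their group means, over 18 libraries; red is positive and blue negative. S100a1 reaches 0.88 with oxidative phosphorylation genes, S100a13 falls to -0.75 with astrocyte markers, and the S100b row stays between -0.32 and 0.47.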

How the data were processed

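The table deposited by the authors holds normalized counts (a signal), that is, gene counts divided by 1 size factor per library. Per the submitters' processing notes, mm10, DESeq2 2.11.40.8, featureCounts 2.0.3, HISAT2 2.2.1 and Trimmomatic 0.39 were used, in roles that the notes list does not state. Neither annotation nor strandedness is given in the sources used here, so reads of overlapping genes may not be separable. Whole reads were recovered from the steps of each column (100% of values within 0.001 reads), with totals of 31.4 to 44.2 M per library. Such totals and floors cover counting error only.

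Values were tested as log2(normalized count + 1), a pseudocount of 1, with limma 3.58.1 (mean-variance trend, robust) in 1 fit of 18 libraries in R 4.3.3. The filterByExpr function of edgeR 4.0.16, with a minimum count of 10, left 18808 genes, and p-values were adjusted over these by Benjamini-Hochberg at 0.05. Fold changes are on that log2 scale and understate changes of low genes. The count test on recovered reads (edgeR quasi-likelihood, TMM) called 393, 0 and 364 genes in the 3 comparisons, against 402, 0 and 376 with limma; DESeq2 1.42.0 was another alternative. Ratios were tested by exact permutation in SciPy 1.17.1 (Python 3.11.15), and relations with 1e+05 permutations within groups. The planned ratio to S100a4 was not run because S100a4 is near 0. Steps were tested on simulated data.

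Members, lists and tests were chosen with earlier results of these data known. Named genes were all members, called genes of the partner, annexin, receptor and EF-hand lists (at most 4 each, or the 2 smallest p), cell type lists by counts, and the 3 genes most like each member, of which some are printed.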

Additional observations from a re-analysis of the deposited data

How the results depend on the processing

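Over 30 alternative settings, S100a6 was called higher in 5xFAD than in WT on control diet in all 30 (log2 fold change 1.12 to 1.27) and in 5xFAD on fucose against WT in all 30 (0.72 to 0.87). Of 630 member values under alternatives, 614 kept direction and side of the threshold. The number of members called in 5xFAD against WT on control diet, 2, was 1 without the variance trend and robust step (S100a1 adjusted p = 0.0669) and 1 without the 3 libraries with little Xist, and ranged from 1 to 3 when libraries were left out in turn. In 5xFAD on fucose against WT, 2 members in place of 1 were called with the ribosomal and oxidative phosphorylation covariate, S100a1 being added (log2 fold change 0.27, adjusted p = 0.03). Between the diets, 1 gene of the whole table was called with no filter on low counts and 0 otherwise.

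Values near 0 reversed between the diets: S100b was -0.017 without 5xFAD control-diet library 1 or without fucose library 3, and -0.0025 without the libraries with little Xist. S100a10 was 0.047 without 5xFAD control-diet library 5, 0.046 without fucose library 6 and 0.18 with the covariate. With libraries left out in turn these values ranged from -0.017 to 0.061 for S100b and from -0.11 to 0.047 for S100a10. The cause was not tested.

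The labels do not say whether the replicate numbers pair the libraries. Correlations of same-numbered deviations ran from -0.17 to 0.33, which cannot decide this because differently numbered libraries were not compared. With a replicate block, 2, 0 and 1 members were called in the 3 comparisons, and 439, 0 and 412 genes. S100a4 and the 5 other S100 genes that were not tested had too few reads to pass the filter on low counts.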

Other observations

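None of 13 other tested genes within 100 kb of a member was called by limma in any of the 3 comparisons. Their median log2 fold change was 0.13 in 5xFAD against WT on control diet, 0.04 between the diets in 5xFAD and 0.06 in fucose-fed 5xFAD against WT. The highest of the 13 values in the first comparison was 2.33, that of S100a8.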
